A study of Danio rerio with 16 samples.

Results

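Neutrophils of the caudal hematopoietic tissue (CHT) with little or no RNA of 6 cell cycle genes, here called non-cycling, were compared between 2 conditions. These were embryos with a caudal fin transection (cut) and embryos without one (normal), in 1 single-cell RNA library per condition. A barcode was a member if it had at least 1000 unique molecular identifiers (UMIs, which count RNA molecules), 300 to 7500 genes, at most 10% mitochondrial UMIs and at least 1% of its UMIs from lyz. It also had to hold no more than 2 UMIs over 6 macrophage genes (mfap4, mpeg1.1, marco, fgl2a, lgals3bpb and c1qb) and no more than 2 over 6 genes of the cell cycle (mki67, top2a, ccnb1, cdk1, pcna and mcm5). The members were 1372 barcodes, with 524 in the normal and 848 in the cut library. They came from 4774 barcodes of these libraries that passed the limits on UMIs, genes and mitochondrial UMIs. Over all 4 libraries of the study 7599 barcodes passed those limits, of 1121149 deposited.

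All groups came from Tg(mpx:Dendra2) zebrafish, in which the mpx promoter drives a green protein that light turns red. The head was photoconverted at 34 and 44 h post fertilization (hpf), so that cells born in the rostral blood island (RBI) were red and those of the CHT stayed green. The fin was transected at 54 hpf in the cut group, and cells were sorted by colour 3 h later from pooled embryos. The libraries labelled KBTGR were read as the green, CHT-derived sort and those labelled KBTRE as the red, RBI-derived sort, a reading of the label's letters. Green marks any cell with Dendra2 that was outside the light at both times, not its birthplace as such, and the sort also took macrophages and other cells. GEO lists 4 replicate entries for each condition, but a single matrix holds their cells and nothing ties a cell to an entry. No replicate could thus be told apart, no test between cut and normal was made, and the age, handling or capture of a library cannot be told apart from the transection.

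Neutrophils are the phagocytes that arrive early at a wound. They carry their weapons ready made in granules, with lysozyme, myeloperoxidase and matrix proteases, and make oxidants with the phagocyte NADPH oxidase. At a wound they sense chemoattractants and microbial or damage products through surface receptors, of which many signal through NF-kappaB, and then make chemokines and cytokines that call or restrain other cells. In zebrafish larvae the CHT is the site where blood cells form before the kidney takes over.

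The neutrophil markers lyz and npsn were found in nearly all members of both libraries, and mpx in most. The rule itself asked for lyz, so only mpx and npsn bear on the label. lyz, the lysozyme of the granules, made up a median of 14.9% of the UMIs of a normal and 9.70% of those of a cut member. mpx, myeloperoxidase, had at least 1 UMI in 98.5% of normal and 88.9% of cut members. npsn, the granule protease nephrosin, was found in 99.8% and 99.4%. By these markers the members bore the label of neutrophils in both libraries. Close to the lyz limit, 2 normal and 13 cut members had 1% to 1.5% lyz, while 10 and 13 barcodes outside had 0.5% to 1%. At the macrophage limit 11 normal and 86 cut members had 2 UMIs of the 6 genes, and 0 and 84 barcodes with 3 were left out. At the cell cycle limit 52 and 69 members had 2 UMIs, and 24 and 28 barcodes had 3.

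The cut members were shallower and held more RNA of other cells. The median was 8044 UMIs and 1663 genes in normal and 4162 UMIs and 1175 genes in cut members, and 35 of 524 against 217 of 848 had fewer than 2000 UMIs. Droplets with 10 to 100 UMIs were read as the free RNA of a library. The 9 erythroid globin genes stood at 4.49% of their free RNA level in normal members (95% counting interval 3.89 to 5.15) and at 10.5% (9.85 to 11.2) in cut members. In cut members with 1000 to 1999 UMIs they stood at 71.2% of it, with 2000 to 4999 UMIs at 6.36% and with 5000 or more at 4.21%, while the normal members of those depths stood at 4.58%, 5.67% and 4.36%. The shallow cut members thus carried globin RNA at close to the level of droplets with no cell. In cut members with 1000 to 1999 UMIs lyz stood at 149% and mpx at 279% of their free RNA level. With 5000 or more UMIs they stood at 412% and 511%. The lyz limit of 1% lay below the lyz share of the free RNA in both libraries, so free RNA alone could meet it. The label of neutrophils is thus less well supported for the shallow cut members. Members with at least 2000 UMIs (489 normal, 631 cut) and, matched in depth, with 3000 to 6000 UMIs (92 normal, 378 cut) were therefore compared apart, and their ratios stand beside the genes below where they ended a call and for the main genes. In CPM, counts per 1000000 UMIs of the members, the 14 macrophage markers summed to 31.5 CPM in normal and 257 CPM in cut members, the 10 muscle markers to 51.7 and 322 CPM and the 10 neural markers to 768 and 1663 CPM. None of these markers was at 0 in both libraries, and of those with at least 50 UMIs all 3 macrophage, all 6 muscle and all 3 neural markers were at least 1.5-fold higher in cut members. The rule held 6 of the macrophage markers low. What part this RNA had in any difference was not tested beyond the values given beside it. Only 1 member barcode was shared by both libraries.

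All CPM are of UMIs summed over the members of a library. The log2 ratio is that of cut over normal CPM and stands in brackets after the CPM values where it is not named. The 95% intervals, given as a range after it, cover counting error only, not the spread between cells, embryos or libraries. Over 5753 genes with at least 50 UMIs the median log2 ratio was 0.15, and 1.5-fold was taken as the limit of a call. By it 1009 genes (17.5%) were higher and 392 (6.81%) lower in cut members, and these shares are the background for every list. A gene rare in either library could reach the minimum of 50 UMIs only through the other, and so be called only as higher there. Of the genes called, 72.0% were higher in CPM, but 53.1% (694 higher, 614 lower) with TMM scaling, which moved the median to 0.00, and 55.9% without the 10 most abundant genes. In members with at least 2000 UMIs 824 genes were higher and 399 lower, and in all members 383 (6.66%) were at least 2-fold higher and 89 (1.55%) 2-fold lower. Of the genes described below that passed 1.5-fold, without those of the rule, 90 of 91 with a value were past it in the same direction with at least 2000 UMIs, 67 of 87 with 3000 to 6000 UMIs and 75 of 81 with free RNA subtracted. In UMIs per cell with no scaling the median was -0.71, since cut members held fewer UMIs, so each ratio here is one of shares of RNA.

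**Figure D1:**
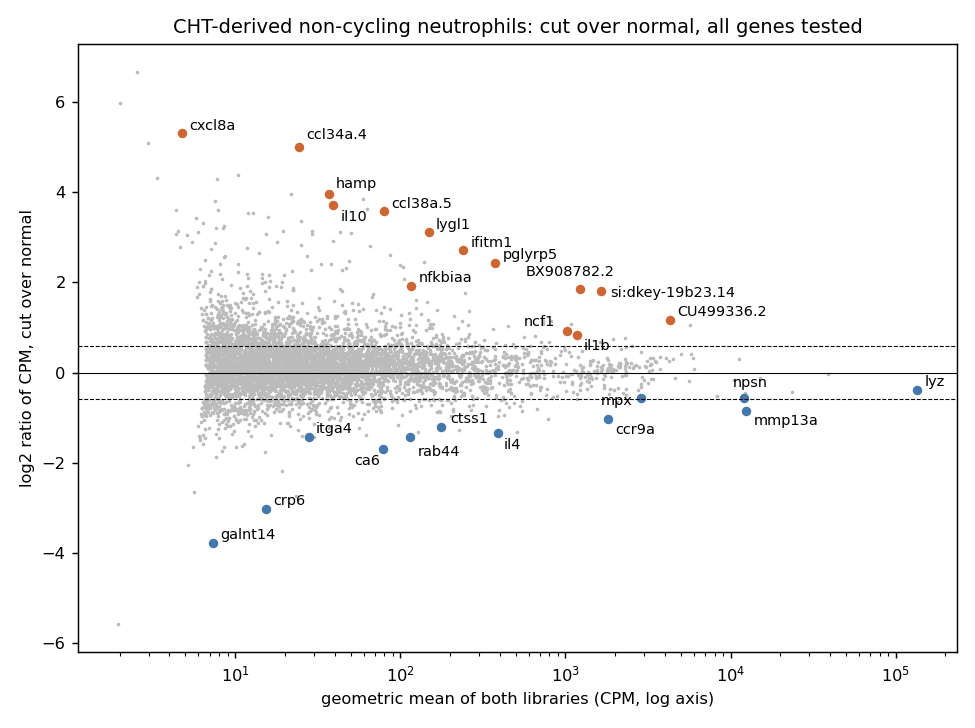
Log2 ratio of CPM (cut over normal, y axis) against the geometric mean of both CPM values (x axis, log scale) for 5753 genes, 1 point each, with dashed lines at 1.5-fold. Coloured genes are described in the text, orange where higher and blue where lower in cut. il10 and ccl38a.5 lie above 3 on the log2 scale and il4 and ccr9a below -1.

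The 12 genes with the highest ratio among those with at least 100 UMIs fell into groups by their level in the free RNA. Only 2 of 12, il10 and ccl38a.5, stood above the free RNA level of the cut library, where 49.8% of all genes tested did. Of the other 10, hamp, ccl34a.4, si:ch211-194m7.3, si:ch211-147m6.1, si:ch211-194m7.4, ms4a17a.9 and cxcl8a were at 9.10% to 14.3% of it, near the 10.5% of the globin genes. The macrophages of the cut library held more of each of these 7 than the members, from 529.6 CPM for cxcl8a to 5894 CPM for si:ch211-194m7.3. The macrophage limit, a count of UMIs, removed 8 normal and 195 cut barcodes. As a share of UMIs it was stricter for the deeper normal members. With the marker limits at 0.05% of UMIs the ratios of these 7 lay between 1.95 (ms4a17a.9) and 4.71 (cxcl8a). Each was lower than under the main rule, with 3.53 for ccl34a.4 and 2.91 for hamp. si:ch211-194m7.3 and si:ch211-147m6.1, which the reference table names as genes like olfactomedin 4, were at 15.6 and 226 CPM (3.85, 3.48 to 4.25) and 17.9 and 223 CPM (3.64, 3.29 to 4.01). si:ch211-194m7.4 was at 2.27 and 47.6 CPM (4.39) and ms4a17a.9, of a family of membrane proteins, at 2.02 and 28.0 CPM (3.80). In members with at least 2000 UMIs the ratios were 2.70 for si:ch211-194m7.3, 2.68 for si:ch211-147m6.1, 3.36 for si:ch211-194m7.4 and 2.18 for ms4a17a.9, and that of ms4a17a.9 was 0.49, under the limit, in members without an erythroid or muscle UMI. snx10a, a sorting nexin of endosomes, was at 5.55 and 86.6 CPM (3.97, 3.34 to 4.66) and si:busm1-57f23.1 at 1.76 and 34.5 CPM (4.29, 3.20 to 5.64). With si:dkeyp-27c8.2 (3.60) they stood between the globin genes and the free RNA level, at 32.5% for snx10a, 47.8% for si:busm1-57f23.1 and 34.3% for si:dkeyp-27c8.2.

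**Figure D2:**
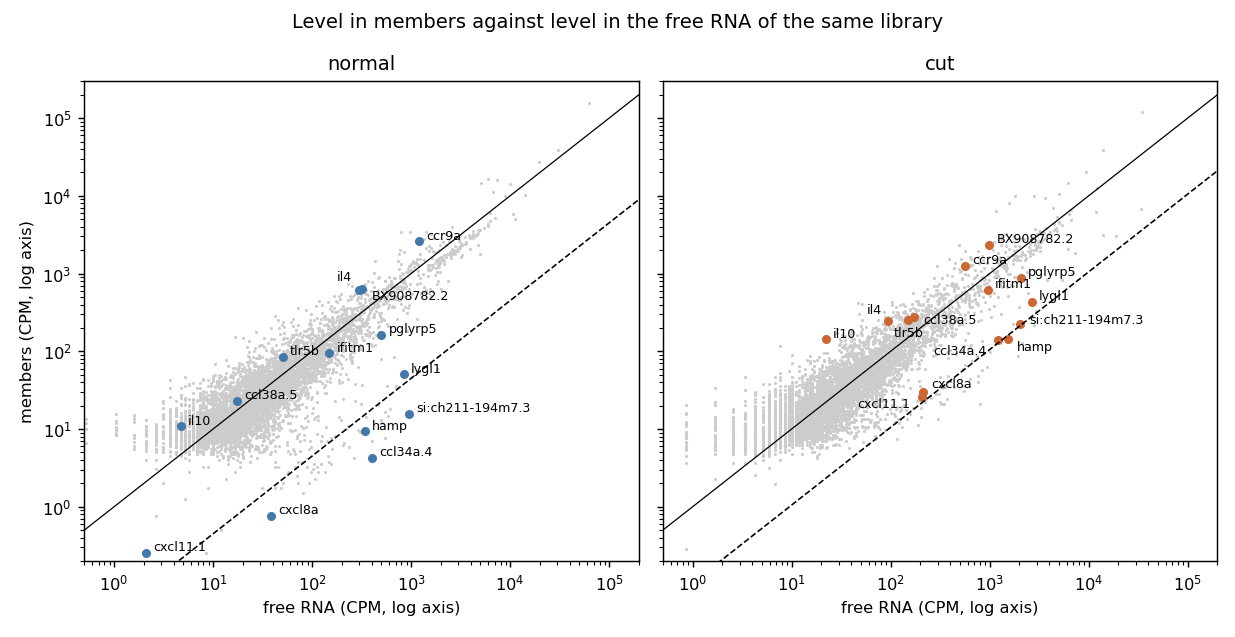
CPM in the members (y axis, log scale) against CPM in the free RNA (x axis, log scale) of the normal and the cut library, 1 point per gene tested. The solid line marks equal levels and the dashed line the percentage given by the globin genes (4.49% in normal, 10.5% in cut). In cut hamp, ccl34a.4 and si:ch211-194m7.3 lie near the dashed line, and il10 lies above the solid line.

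il10 encodes interleukin 10, a cytokine that restrains inflammation. It was at 10.8 CPM in normal and 143 CPM in cut members, a log2 ratio of 3.72 (3.27 to 4.20). The free RNA held 4.72 CPM in normal and 22.1 CPM in cut, so that the level of the cut members was 645% of it. In members of 1000 to 1999, 2000 to 4999 and 5000 or more UMIs il10 was at 17.5 and 120.4 CPM, 18.2 and 213 CPM and 9.93 and 99.5 CPM in normal and cut. It was thus higher in cut at each depth, with a log2 ratio of 3.75 in members with at least 2000 UMIs and 2.71 in those with 3000 to 6000.

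ccl38a.5, a CC chemokine gene, was at 23.2 CPM in normal and 276 CPM in cut members, a log2 ratio of 3.57 (3.26 to 3.90), and at 3.51 in members with at least 2000 UMIs. A single normal member held 31 of its 92 normal UMIs. Its free RNA level was 17.3 CPM in normal and 173 CPM in cut. Its neighbour in name ccl38a.4 was at 17.1 and 147 CPM, a log2 ratio of 3.10 (2.73 to 3.48). These genes are close relatives, and reads of one may have been counted for the other. Both stood above the free RNA of the cut library.

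The largest excess in CPM lay in abundant genes with less extreme ratios, ENSDARG00000113899, CU499336.2, si:dkey-151g10.6, si:dkey-19b23.14, mt-co2 and BX908782.2. The reference table names the first of them arf5, and the others except mt-co2 have no name that tells a function. ENSDARG00000113899 was at 3918 CPM in normal and 8145 CPM in cut members, with a log2 ratio of 1.06 (1.03 to 1.08). CU499336.2 was at 2853 CPM in normal and 6444 CPM in cut members, with a ratio of 1.18 (1.14 to 1.21). Both had at least 1 UMI in 92.5% or more of the members of each library. si:dkey-19b23.14 was at 881 CPM in normal and 3072 CPM in cut members, with a ratio of 1.80 (1.75 to 1.86). BX908782.2 was at 639 CPM in normal and 2327 CPM in cut members, with a ratio of 1.86 (1.80 to 1.93). These 4 genes stood above the free RNA in cut members and had ratios of 1.11, 1.25, 1.81 and 1.92 in members with at least 2000 UMIs. BX908782.2 was at 32.9 and 295 CPM in the macrophages of these libraries, well below the neutrophils. si:dkey-151g10.6 was at 10147 and 12484 CPM and mt-co2, a mitochondrial subunit of the respiratory chain, at 4994 and 6686 CPM, with ratios of 0.30 and 0.42 under the 1.5-fold limit.

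Chemokines and defence proteins had the highest medians of the function lists. Medians of the 28 lists lay between -0.39 (adhesion and integrins) and 3.13 (chemokines), beside 0.15 over all genes. In UMIs per cell only chemokines (2.27) and defence proteins (1.71) kept a median above 0. With TMM scaling the medians of the ribosomal list (-0.05) and of glycolysis (-0.10) turned negative. In members with 3000 to 6000 UMIs the medians of cytokines (-0.68), AP-1 and immediate early genes (-0.63) and mitochondrially encoded genes (-0.35) turned below 0. So did those of endoplasmic reticulum stress (-0.13), heat shock and chaperones (-0.05) and the lysosomal list (-0.003). The medians of actin and motility (0.22), oxidative stress (0.17) and eicosanoid synthesis (0.06) turned above 0. Chemokines (2.94), defence proteins (1.92) and the NF-kappaB list (0.55) stayed above 0. These medians cover fewer genes, since 2988 genes had enough UMIs at that depth against 5753 in all members. The chemokine median there equalled the ratio of ccl38a.5 and the cytokine median that of il1b. They are thus not medians of the same genes as in all members. No list was tested against the other genes.

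**Figure D3:**
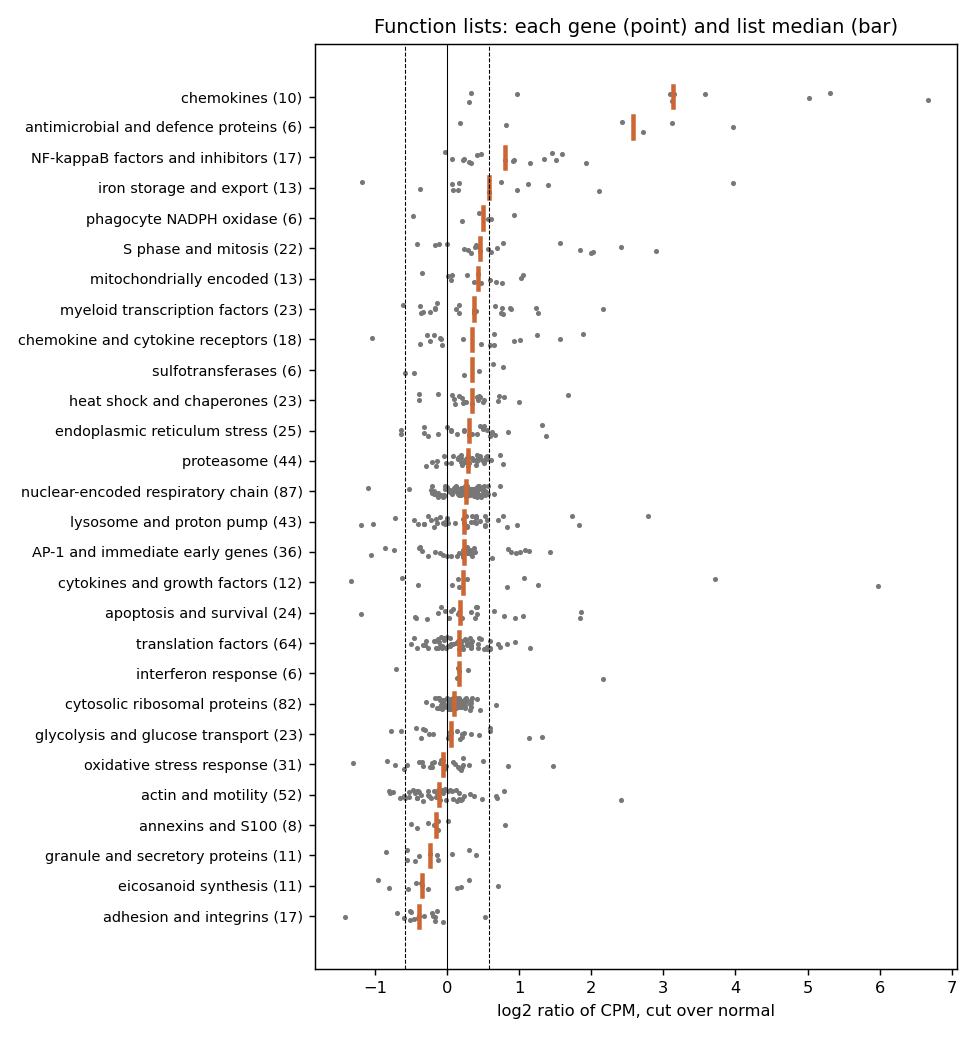
Log2 ratio of CPM (cut over normal, x axis) of each gene with at least 50 UMIs (points) in 28 function lists (rows, number of genes in brackets), with the list median as an orange bar and dashed lines at 1.5-fold. Chemokines and antimicrobial and defence proteins have medians of 3.13 and 2.57, and adhesion and integrins the lowest at -0.39.

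Of the antimicrobial and defence proteins 5 of 6 genes were higher and none lower, against a background of 17.5% higher. These 6 were the genes with at least 50 UMIs among 15 listed. pglyrp5, a peptidoglycan recognition protein that binds bacterial walls, was at 162 CPM in normal and 873 CPM in cut members, a log2 ratio of 2.43 (2.31 to 2.56). ifitm1, a membrane protein of antiviral defence, was at 94.0 CPM in normal and 616 CPM in cut members, with a ratio of 2.71 (2.55 to 2.87). lygl1, a goose-type lysozyme, was at 50.4 CPM in normal and 436 CPM in cut members, with a ratio of 3.11 (2.90 to 3.33). All 3 were lower in the members than in the free RNA, at 42.2%, 64.1% and 16.3% of it in cut, and the macrophages of the cut library had 3176, 2622 and 5017 CPM. For ifitm1 and pglyrp5 these percentages lay well above that of the globin genes. Markers of other cells differed in this, however. In cut members the muscle markers stood at 5.53%, the epidermis markers at 17.9% and the neural markers at 47.2% of their free RNA. The percentage of pglyrp5 was thus below that of the neural markers. The free RNA also held more in cut, with 2884 CPM in normal and 8035 CPM in cut over all 15 listed genes. Members stood at 53.1% and 43.3% of that sum. Among members with 5000 or more UMIs pglyrp5 stood at 32.6% and 25.1% of its free RNA in normal and cut. There ifitm1 stood at 64.2% and 59.6% and lygl1 at 5.63% and 8.68%. At 5000 or more UMIs pglyrp5 was at 163 and 519.5 CPM in normal and cut, ifitm1 at 95.9 and 573 CPM and lygl1 at 47.4 and 232 CPM, so that each was higher in cut among the deep members too. With at least 2000 UMIs the ratios were 2.24, 2.63 and 2.54, and with 3000 to 6000 UMIs 2.72, 1.99 and 1.84.

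hamp, hepcidin, which binds the iron exporter ferroportin and is also antimicrobial, was at 9.33 CPM in normal and 146 CPM in cut members, a ratio of 3.97 (3.49 to 4.49). Its level in cut members differed with depth. It was at 1073 CPM in cut members with 1000 to 1999 UMIs, at 84.4 CPM with 2000 to 4999 and at 48.7 CPM with 5000 or more. These were 69.4%, 5.46% and 3.15% of its free RNA level, below the percentages of the globin genes at the same depths. Its ratio was 2.73 with at least 2000 UMIs. acod1, which makes itaconate in activated phagocytes, was at 58.0 and 102 CPM (0.81, but 0.14 with 3000 to 6000 UMIs) and nccrp1, a receptor first described on fish cytotoxic cells, at 1153 and 1299.9 CPM (0.17).

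Of the chemokines 8 of 10 genes were higher and none lower. These 10 were the genes with at least 50 UMIs among 50 listed. Some had almost no UMIs in normal members, so they could be called only as higher. Over all 50 the sum was 101 CPM in normal and 821 CPM in cut. Only ccl38a.4 and ccl38a.5, described above, stood above the free RNA in the cut members. cxcl8a, the CXCL8 that draws neutrophils, had 3 UMIs in normal and 106 in cut members, a log2 ratio of 5.31 (3.72 to 7.61). cxcl11.1, of the family that binds CXCR3, had 1 UMI in normal and 91 in cut, a ratio of 6.68 (4.16 to 11.99). ccl34a.4, which was among the macrophage markers used here, was at 4.29 CPM in normal and 138 CPM in cut members, a ratio of 5.01 (4.32 to 5.81) that was 3.73 with at least 2000 UMIs. With 3000 to 6000 UMIs the ratio of cxcl8a was 2.96. Macrophages of the cut library held 529.6 CPM of cxcl8a, 231 CPM of cxcl11.1 and 5367 CPM of ccl34a.4. In the cut members these genes stood at 14.3%, 12.4% and 11.4% of their free RNA. ccl34b.8 (0.97, but -0.36 with 3000 to 6000 UMIs), cxcl19 (0.33) and ccl38.1 (0.31) had the lowest ratios of the list, and the intervals of the last pair included 0.

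The cytokines and growth factors differed in both directions, with 5 of 12 higher and 2 lower. il4, the interleukin of type 2 responses, was at 619 CPM in normal and 244 CPM in cut members, a ratio of -1.34 (-1.46 to -1.23). It was lower in cut at each depth, at 1716 and 155 CPM with 1000 to 1999 UMIs, 970.2 and 379 CPM with 2000 to 4999 and 563 and 169 CPM with 5000 or more. hbegfa, which encodes a ligand of the EGF receptor, was at 161 and 104 CPM (-0.63, -0.82 to -0.44). Its paralog hbegfb had 1 UMI in normal and 56 in cut (5.97, 3.44 to 11.30), with a ratio of 5.18 at 2000 or more UMIs, and stood at 15.8% of its free RNA in cut. il34, a ligand of the receptor of macrophage colony-stimulating factor, was at 516 and 389 CPM, with a ratio of -0.41 under the limit. il1b, interleukin 1 beta, was the most abundant cytokine and was at 881 CPM in normal and 1562 CPM in cut members, a ratio of 0.83 (0.76 to 0.89). tnfb, a tumour necrosis factor, was at 137 CPM in normal and 328 CPM in cut members, a ratio of 1.25 (1.11 to 1.40). With at least 2000 UMIs their ratios were 0.64 and 0.76. The direction of both differed with depth. il1b was at 1418 and 3779 CPM in normal and cut with 1000 to 1999 UMIs, at 2320.1 and 1777 CPM with 2000 to 4999 and at 715 and 1088 CPM with 5000 or more, and in members with 3000 to 6000 UMIs the ratios were -0.68 for il1b and -0.68 for tnfb. Only 92 normal members were in that range, against 378 cut. csf3b, a granulocyte colony-stimulating factor that drives the making of neutrophils, was taken up after its values were seen. It was at 85.7 CPM in normal and 179 CPM in cut members, a ratio of 1.06 (0.87 to 1.25). At 5000 or more UMIs it was at 66.9 and 83.1 CPM and at 2000 to 4999 at 268 and 242 CPM. Over all members with at least 2000 UMIs its ratio was 0.75. In both libraries csf3b and il1b were higher at 2000 to 4999 UMIs than at 5000 or more. That range held 116 normal and 341 cut members, beside 373 and 290 with 5000 or more. The ratios of csf3b and il1b with at least 2000 UMIs thus also hold this difference in depth.

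Of the chemokine and cytokine receptors 8 of 18 were higher and 1 lower, yet their sum went from 5833 CPM in normal to 4346 CPM in cut, since the most abundant of them was the one that was lower. ccr9a, a receptor of the chemokine CCL25 in mammals, was at 2587 CPM in normal and 1259 CPM in cut members, a ratio of -1.04 (-1.09 to -0.99). The receptor genes il6r (1896 and 1559 CPM) and ltb4r (518 and 399 CPM), for interleukin 6 and leukotriene B4, had ratios of -0.28 and -0.38, under the limit. tlr5b, a receptor of bacterial flagellin, was at 84.7 CPM in normal and 251 CPM in cut members, a ratio of 1.56 (1.38 to 1.75), and above its free RNA in both libraries. il10ra, which binds interleukin 10, was at 5.55 and 20.4 CPM (1.88, 1.17 to 2.64), and csf2rb, a shared receptor chain, at 14.4 and 33.98 CPM (1.24, 0.78 to 1.72). With 3000 to 6000 UMIs their ratios were 0.82 and 0.35, the second under the limit. il10 and a gene for its receptor were thus both higher in cut, though il10ra stood at 19.8% of its free RNA in cut.

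Inhibitors led the NF-kappaB list, in which 9 of 17 genes were higher and none lower, with a median of 0.80. The whole list summed to 1535 CPM in normal and 2940 CPM in cut members. In the free RNA it summed to 1635 and 3045 CPM, so the excess in cut was of similar size there. Of the 17 genes 8 stood above the free RNA in normal and 11 in cut members. nfkbiab and nfkbiaa encode forms of IkappaB alpha, which holds NF-kappaB in the cytoplasm and is itself a target of it. nfkbiab was at 547 CPM in normal and 1209 CPM in cut members (1.15, 1.07 to 1.22) and nfkbiaa at 59.7 CPM in normal and 228 CPM in cut members (1.93, 1.72 to 2.15). tnip1, which acts with the inhibitor A20, was at 26.5 and 75.3 CPM (1.51, 1.18 to 1.85) and bcl3, a nuclear member of the IkappaB family, at 4.03 and 12.2 CPM (1.59, 0.74 to 2.52). The subunit gene nfkb1 was at 10.1 and 9.91 CPM, with a ratio of -0.03 (-0.72 to 0.67) whose interval included 0. With at least 2000 UMIs the list median was 0.79. With 3000 to 6000 UMIs nfkbiaa had a ratio of 0.62, nfkbiab of -0.07 and bcl3 of -0.08. Of the AP-1 and immediate early genes 8 of 36 were higher and 3 lower. jund, an AP-1 subunit, was at 16.1 and 35.4 CPM (1.13), and nr4a1, a nuclear receptor of the early response, at 173 and 104 CPM (-0.73, -0.92 to -0.55).

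The granule genes other than lyz, which the rule used, summed to 58197 CPM in normal and 42845 CPM in cut. lyz alone made up 72.7% and 73.4% of the whole list, in which 1 of 11 was called lower and none higher. That gene was mmp13a, a collagenase, at 16648 CPM in normal and 9257 CPM in cut members, a ratio of -0.85 (-0.87 to -0.83). npsn was at 14544 and 9889 CPM (-0.56) and mpx at 3470.1 and 2357 CPM (-0.56), just under the limit. lyz, used by the rule and given as a description, was at 154804 and 118375 CPM (-0.39). At 5000 or more UMIs lyz was at 147460 and 142340 CPM and mpx at 3221 and 2499.7 CPM in normal and cut, while at 1000 to 1999 UMIs mpx was at 7389 and 1365 CPM. The difference in lyz and mpx was thus larger among the shallower members. ctsc, whose protease activates granule enzymes in mammals, was at 161 and 213 CPM (0.40).

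Of the 12 genes with the lowest ratios 7 stood above the free RNA in cut and 10 in normal members. galnt14, an enzyme that starts mucin-type glycosylation, was at 27.2 CPM in normal and 1.98 CPM in cut members, a ratio of -3.78 (-5.13 to -2.69), with 108 and 7 UMIs. crp6, of the C-reactive protein family, was at 43.6 and 5.38 CPM (-3.02, -3.79 to -2.33) and si:ch73-359m17.7 at 59.998 and 9.06 CPM (-2.73, -3.31 to -2.19). rgn, the calcium-binding regucalcin, was at 40.8 and 9.06 CPM (-2.17, -2.77 to -1.62) and map2k6, a kinase upstream of p38, at 27.7 and 8.21 CPM (-1.76, -2.40 to -1.15). ca6, a carbonic anhydrase, was at 141 CPM in normal and 43.6 CPM in cut members (-1.70, -1.96 to -1.44). rab44, a large Rab GTPase linked to granules in mouse, was at 188 CPM in normal and 70.2 CPM in cut members (-1.42, -1.63 to -1.21), and itga4, the alpha 4 integrin subunit, at 45.6 and 16.99 CPM (-1.43, -1.87 to -0.997). The others were si:ch211-269k10.5 (-1.43), si:dkey-190j3.4 (-1.40) and rnf11b (-1.40), a ubiquitin ligase, and pvalb5 (-1.59), a parvalbumin of muscle. The place of pvalb5 rested on 1 normal member that held 76 of its 78 normal UMIs, and the share of members with a UMI of it was 0.573% and 2.59% in normal and cut. In members with at least 2000 UMIs the ratios of galnt14, crp6, ca6, rab44 and itga4 were -3.89, -2.87, -1.62, -1.44 and -1.57. Among adhesion genes and integrins, 3 of 17 were lower and none higher, with a median of -0.39. With itga4 these were itgb7 (-0.69), an integrin beta subunit, and fermt3b (-0.61, but -0.35 with 3000 to 6000 UMIs), a kindlin that activates integrins in blood cells, while thy1 was at 1802 and 2581 CPM (0.52).

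Of the phagocyte NADPH oxidase 2 of 6 genes were higher and none lower. ncf1, the organizer subunit p47phox, was at 747 CPM in normal and 1416 CPM in cut members (0.92, 0.86 to 0.99), and cybb, the catalytic subunit, at 140.4 CPM in normal and 214 CPM in cut members (0.61, 0.45 to 0.77). cyba (0.44) and ncf4 (0.21) had ratios above 0 but under the limit, and rac2, the GTPase of the complex, was at 1392 and 999 CPM (-0.48). In members with at least 2000 UMIs ncf1 had a ratio of 0.85. Of the oxidative stress genes 2 of 31 were higher and 4 lower. The lower ones included genes for glutathione. gclc, the catalytic subunit of its first enzyme, was at 202 CPM in normal and 81.5 CPM in cut members (-1.31, -1.51 to -1.12), slc7a11, which imports cystine for it, at 733 CPM in normal and 409 CPM in cut members (-0.84, -0.93 to -0.75), and mgst1.1, a glutathione transferase, at 26.2 and 15.9 CPM (-0.73). taldo1, transaldolase of the pentose phosphate pathway, was at 12.4 and 34.3 CPM (1.47, 0.98 to 1.98) and prdx1, a peroxiredoxin, at 840.0 and 1185 CPM (0.50). Among genes of eicosanoid synthesis ptgs2b, a cyclooxygenase, was at 25.7 and 14.7 CPM (-0.80), and lta4h, which makes leukotriene B4, at 1023 and 700.5 CPM (-0.55). Of that list 2 of 11 were lower and 1 higher.

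Genes of actin and motility had a median of -0.12, with 6 of 52 lower and 4 higher. The actin genes actb2 (27175 and 20275 CPM) and actb1 (9915 and 6894 CPM) and the monomer-binding profilin pfn1 (14269.5 and 10417 CPM) were among the genes with the largest deficit in CPM in cut members, with ratios of -0.42, -0.52 and -0.45 under the limit. capgb, which caps actin filaments, was at 886 and 508 CPM (-0.80), hcls1, a cortactin-like protein of blood cells, at 164 and 94.9 CPM (-0.79) and wasa, of the WASP family that starts branched actin, at 53.9 and 32.0 CPM (-0.75). In members with 3000 to 6000 UMIs the ratios were 0.22 for actb2, -0.05 for capgb, -0.03 for hcls1 and -0.01 for wasa, under the limit. tmsb4x, thymosin beta 4, which holds actin monomers, was the most abundant of the list at 39266 and 38517 CPM (-0.03).

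The lysosomal list was called at close to the background shares, with the cathepsin S genes lower and some others higher. ctss2.1 was at 1118 CPM in normal and 546 CPM in cut members (-1.03, -1.11 to -0.96) and ctss1 at 268 CPM in normal and 117 CPM in cut members (-1.20, -1.37 to -1.03), with ratios of -1.03 and -1.18 with at least 2000 UMIs. atp6v1ab, a subunit of the vacuolar proton pump, was at 11.8 and 41.9 CPM (1.82, 1.34 to 2.33), lgmn, the protease legumain, at 7.06 and 23.5 CPM (1.74) and grn1, a granulin, at 1.76 and 12.2 CPM (2.79). These last 3 stood at 36.5%, 11.96% and 11.01% of their free RNA in cut members. With at least 2000 UMIs the ratios of lgmn and grn1 were 1.15 and 1.63, and without erythroid or muscle UMIs that of lgmn was 0.17. The macrophages of the cut library held 225, 461 and 275 CPM of them. Of the whole lysosomal list 7 of 43 were higher and 3 lower, near the 17.5% and 6.81% over all genes.

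Among iron genes 6 of 13 were higher, hamp among them, and 1 lower. The ferritin heavy chain genes split, with fthl29 at 7.06 and 30.3 CPM (2.102, 1.49 to 2.76) and fthl31 at 44.1 and 116 CPM (1.39, 1.13 to 1.66), and the far more abundant fthl27 at 5863 and 6162 CPM (0.07). The counts of fthl31 and fthl27 are each the sum of a pair of identifiers, and reads may be shared within the family. fthl31 had a ratio of 0.76 with at least 2000 UMIs and of 0.33 without erythroid or muscle UMIs. slc40a1, ferroportin, the iron exporter that hepcidin binds, was at 19.9 and 8.78 CPM (-1.18, -1.83 to -0.57, but -0.58 with 3000 to 6000 UMIs).

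The stress and survival lists were called higher at shares somewhat above the 17.5% over all genes. They were called lower at shares near or under the 6.81%. Of the heat shock and chaperone genes 5 of 23 were higher, with hspe1, a mitochondrial cochaperone, at 37.8 and 121 CPM (1.67, 1.40 to 1.95) and hsp70l, an inducible HSP70, at 110.4 and 220 CPM (0.99, but -0.89 with 3000 to 6000 UMIs). The constitutive hspa8 (-0.40) and hsp90ab1 (-0.40) were under the limit. Of the endoplasmic reticulum stress genes 6 of 25 were higher and 2 lower, with the disulfide isomerase pdia6 at 35.3 and 90.9 CPM (1.36, 1.07 to 1.66) and the phosphatase subunit ppp1r15a at 9.58 and 23.8 CPM (1.31), and chac1, which breaks down glutathione, at 677 and 435 CPM (-0.64). Of the genes of apoptosis and survival 6 of 24 were higher and 1 lower. pmaip1, the BH3 protein NOXA, was at 22.7 and 82.4 CPM (1.86, 1.51 to 2.22), gsdmea, a gasdermin, at 11.8 and 42.5 CPM (1.84, 1.36 to 2.35) and bcl2l11, the BH3 protein BIM, at 13.6 and 5.95 CPM (-1.20, -2.00 to -0.44). pmaip1 stood at 21.5% of its free RNA in cut and gsdmea at 96.0%, and gsdmea had a ratio of 0.74 with 3000 to 6000 UMIs.

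Of the myeloid transcription factors 9 of 23 were higher and 1 lower. stat3, which acts below interleukin 10 and granulocyte colony-stimulating factor, was at 26.7 and 63.7 CPM (1.25, 0.91 to 1.60). id1, an inhibitor of differentiation factors, was at 7.56 and 33.98 CPM (2.17), with 43 of its 120 cut UMIs in 1 member, but stood at 10.01% of its free RNA in cut and had a ratio of -0.89 with 3000 to 6000 UMIs. The lineage factors spi1b (806 and 618 CPM) and cebpb (2646 and 2060.1 CPM) had ratios of -0.38 and -0.36, and runx3 was at 218 and 142 CPM (-0.62, but -0.47 with 3000 to 6000 UMIs). Of the interferon response list 6 genes had enough UMIs, with 1 higher, b2m at 3.28 and 14.7 CPM (2.17), and 1 lower, trim25 at 19.9 and 12.2 CPM (-0.71, but 0.50 with 3000 to 6000 UMIs). irf7, a factor of that response, was at 39.1 and 47.9 CPM (0.29, -0.03 to 0.62).

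Lists of growth and metabolism differed in how many genes passed the limit. Of the ribosomal protein genes 1 of 82 was higher, rpl26 at 1279 and 2036 CPM (0.67), and none lower. Of the translation factors 8 of 64 were higher, of the nuclear-encoded respiratory chain 2 of 87 and of the proteasome 3 of 44. Each of these shares was under the 17.5% over all genes. Of glycolysis and glucose transport 4 of 23 were higher and 2 lower, near the background of 17.5% and 6.81%. pfkfb4b, which makes the activator of phosphofructokinase, was at 17.1 and 42.8 CPM (1.32, 0.90 to 1.75), the glucose transporter slc2a6 at 53.2 and 117 CPM (1.13, but 0.45 with 3000 to 6000 UMIs) and the phosphofructokinase pfkpa at 89.2 and 51.8 CPM (-0.78). Of the mitochondrially encoded genes 5 of 13 were higher, with mt-nd5 at 178 and 368 CPM (1.05) and mt-atp6 at 1772 and 3011 CPM (0.76). With 3000 to 6000 UMIs their ratios were 0.25 and -0.18, under the limit. The free RNA held 5015 CPM in normal and 18737 CPM in cut of mt-atp6. With free RNA subtracted the ratios were 0.09 for mt-nd5 and -0.48 for mt-atp6, and the list median went from 0.42 to -0.48. Of S phase and mitosis genes 9 of 22 were higher and none lower, but the rule itself limits 6 cell cycle genes, and 1 of 22 stood above the free RNA in cut. That limit is a count of UMIs, so as a share of UMIs it was stricter for the deeper normal members. With the marker limits set at 0.05% of UMIs the list median went from 0.45 to 0.16 and the ratio of aurkb from 2.90 to 0.99. Of annexins and S100 genes 1 of 8, s100z at 50.7 and 88.1 CPM (0.80), and of sulfotransferases 2 of 6 were higher. The lower sulfotransferase was sult2st1 at 1433 and 955 CPM (-0.59). Its ratio was -0.54 with at least 2000 UMIs and -0.31 with 3000 to 6000, under the limit in each.

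Shares of members with a UMI were compared after each cell had been thinned to 1000 UMIs, with the neural cells of the same library as cells that should lack these genes. Neural cells had to hold under 0.5% lyz, less than the free RNA did, so barcodes rich in free RNA were left out of them. Their shares therefore cannot stand for the free RNA in the shallow cut members. The libraries held 215 and 204 neural cells, with medians of 2981 and 1822 UMIs before thinning. si:dkey-19b23.14 was found in 50.8% (46.4 to 55.1) of normal and 85.5% (82.9 to 87.8) of cut members, and in 1.40% and 6.37% of neural cells. ncf1 was found in 35.1% (31.03 to 39.4) of normal and 70.0% (66.8 to 73.1) of cut members (1.40% and 4.902% of neural cells). Both were thus read in most of the cut members. pglyrp5 was found in 9.16% (6.83 to 11.96) of normal and 48.7% (45.3 to 52.1) of cut members (4.19% and 10.8% of neural cells), and BX908782.2 in 29.2% (25.3 to 33.3) of normal and 58.6% (55.2 to 61.9) of cut members (0.465% and 4.41%). il10 was found in 1.34% (0.539 to 2.73) of normal and 12.1% (10.02 to 14.5) of cut members, against 0% and 0.490% of neural cells (0 of 215 allows up to 1.40%), and ccl38a.5 in 0.954% (0.311 to 2.21) of normal and 13.7% (11.4 to 16.2) of cut members, against 0% and 0.980%. Both were thus read in a minority of the cut members at this depth. il4 was found in 27.3% (23.5 to 31.3) of normal and 12.97% (10.8 to 15.4) of cut members (1.40% and 1.47% of neural cells) and ccr9a in 73.7% (69.7 to 77.4) of normal and 54.1% (50.7 to 57.5) of cut members (2.33% and 2.45%). Without thinning the shares were 6.30% and 28.5% for il10, 4.01% and 21.2% for ccl38a.5, 44.1% and 25.4% for il4, 26.1% and 69.1% for pglyrp5 and 92.6% and 75.8% for ccr9a in normal and cut. Without thinning hamp was found in 6.68% and 33.96%, and with it in 0.763% and 17.9% of members and in 1.40% and 6.86% of neural cells.

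**Figure D4:**
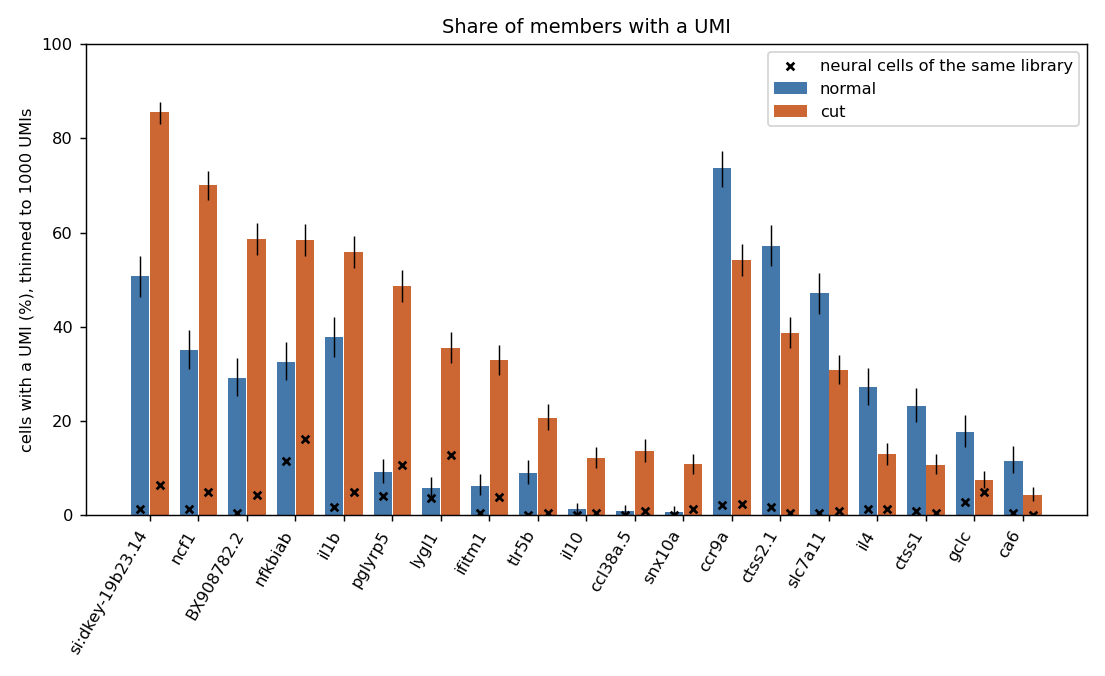
Percentage of members with at least 1 UMI of a gene after thinning each cell to 1000 UMIs (y axis), in normal (blue) and cut (orange) members, with exact 95% intervals for counting error. Crosses mark the neural cells of the same library. From si:dkey-19b23.14 to snx10a the cut bars are the higher ones, and from ccr9a to ca6 the normal bars are.

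Some of these genes were found in the same cells. In the cut library, after thinning, 301 members had lygl1, 413 had pglyrp5 and 212 had both, which is 70.4% of the first and 51.3% of the second. Of all cut members 48.7% had pglyrp5 and 35.5% had lygl1. ccl38a.5 was found in 116 and ccl38a.4 in 51, with both in 25 (21.6% and 49.0%). Of all cut members 6.01% had ccl38a.4 and 13.7% had ccl38a.5. il10 and ccl38a.5 were found together in 18 members, 17.5% of the 103 with il10, beside 13.7% of all cut members with ccl38a.5. il4 and il10 were together in 18, 17.5% of those with il10, beside 12.97% of all. hamp and ccl34a.4 were together in 91, 59.9% of the 152 with hamp, beside 18.4% of all cut members with ccl34a.4. Without thinning 33.96% of cut members had hamp and 28.5% had il10, more than the counts above. Those with hamp had a median of 2977 UMIs and those without it 4394, while for il10 the medians were 4632 and 3926. Without thinning a deeper cell also has more UMIs in which a gene can be read. Genes read in 1 cell share its depth and its free RNA, so these counts are a description.

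**Figure D5:**
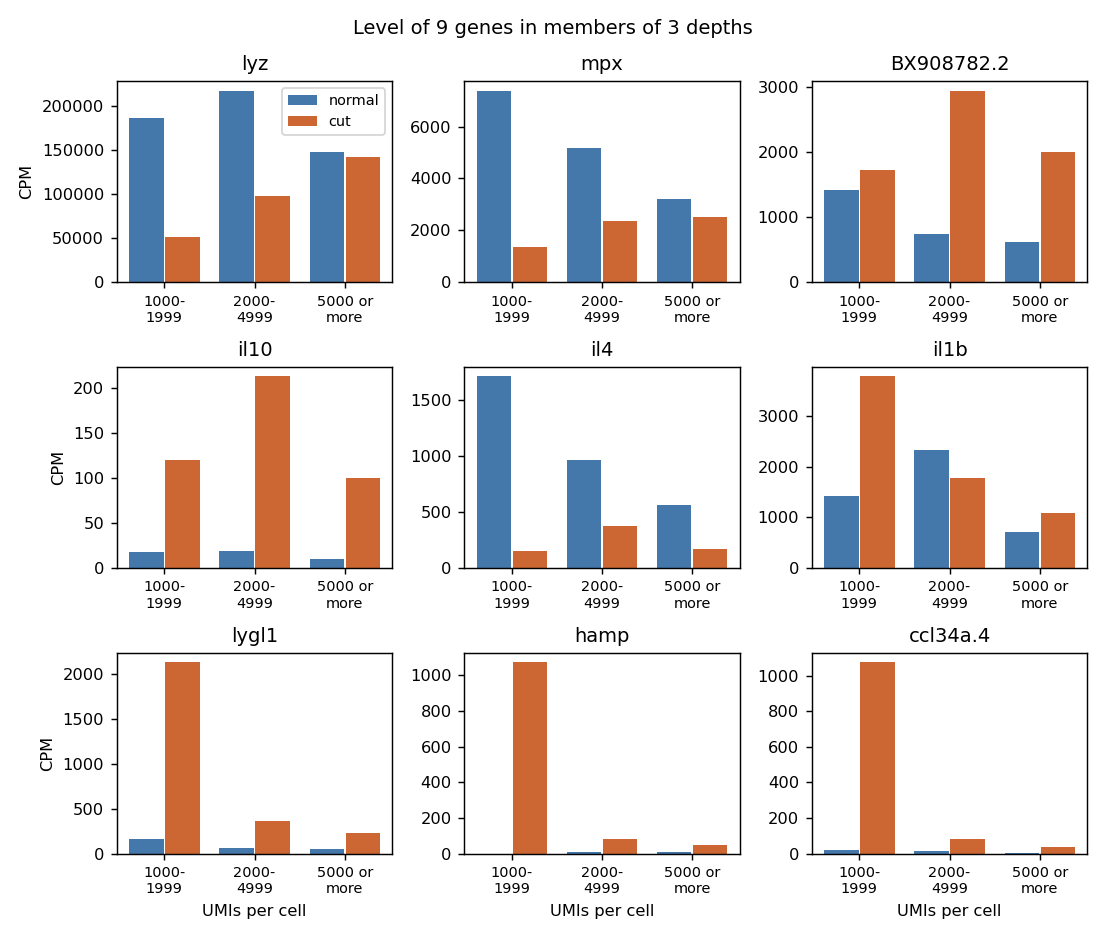
CPM (y axes, each from 0) of 9 genes in members with 1000 to 1999, 2000 to 4999 and 5000 or more UMIs (x axes), in normal (blue) and cut (orange), from 35, 116 and 373 normal and 217, 341 and 290 cut members. hamp and ccl34a.4 are near 1073 and 1076 CPM in the shallowest cut members and under 90 CPM in the deeper ones, il10 and BX908782.2 are higher in cut and il4 lower at each depth, and il1b changes direction between depths.

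The RBI-derived libraries, read under the same rule (847 normal and 1149 cut members), are given beside these values with no test of a difference. Of the 12 genes highest in CHT-derived members 9 had at least 50 UMIs there and 9 were at least 1.5-fold higher in cut, where 736 of 5331 genes (13.8%) were, with medians of 3.85 in CHT-derived and 2.28 in RBI-derived members. The list was chosen on the first of these values. Of the 12 lowest 11 had enough UMIs and 7 were at least 1.5-fold lower, where 4.95% of the same genes were. il10 was at 19.9 and 62.1 CPM in RBI-derived normal and cut members (1.64), ccl38a.5 at 104 and 216 CPM (1.05) and il4 at 1897 and 1089 CPM (-0.80). pglyrp5 was at 203 and 535 CPM (1.40), BX908782.2 at 725 and 1631 CPM (1.17), ncf1 at 994 and 1132 CPM (0.19) and ccr9a at 2611 and 1748 CPM (-0.58). il10, ccl38a.5, pglyrp5 and BX908782.2 were thus called higher and il4 lower in the cut members of both origins. In RBI-derived members ncf1 and ccr9a were under the limit or near it. RNA of other cells also differed there. The 11 erythroid markers summed to 12.6 CPM in RBI-derived normal and 1360 CPM in RBI-derived cut members, beside 52.4 and 266 CPM in CHT-derived ones. The muscle markers went the other way in RBI-derived members, with a median log2 ratio of -1.03. What part this RNA, free RNA or depth had in the RBI-derived ratios was not tested. galnt14 was at 15.8 and 21.8 CPM (0.46), which was not lower in RBI-derived cut members, from 59 and 86 UMIs. csf3b was at 336 and 189 CPM (-0.83), lower in RBI-derived cut members. In CHT-derived cut members it was higher when members of all depths were summed. The difference between the origins was not tested. In CHT-derived members its direction differed with depth. It was at 17.5 and 540 CPM in normal and cut with 1000 to 1999 UMIs, the first from 1 UMI. With 2000 to 4999 UMIs it was at 268 and 242 CPM and with 5000 or more at 66.9 and 83.1 CPM.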

How the data were processed

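Raw counts of UMIs per gene and barcode were deposited by the authors as 1 matrix per condition. The submitters' processing notes name Cell Ranger 7.1.0, the genome build GRCz11 and Seurat, and the files were made from 10x 3' libraries. The matrices hold all droplets, with 17303744 UMIs in 335376 barcodes (KBTGR normal) and 15982680 in 330817 (KBTGR cut). The members' UMIs, 3966791 and 3531816, set the precision of each CPM.

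Members were selected and summed with pandas 2.3.3, scipy 1.17.1 and numpy 2.4.6 under Python 3.11.15. Intervals of CPM are exact Poisson and those of ratios exact conditional binomial intervals, at 95%, and those of shares are exact (Clopper-Pearson). They cover counting error only. With 1 library per condition no p-value was computed. The code was tested on simulated data. Rows with the same symbol were summed. Of 25433 identifiers 23608 had a name in the reference table.

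The members and lists were chosen with earlier results of these data known. The genes described in the text were the 12 highest and 12 lowest ratios among genes with at least 100 UMIs, the 6 largest differences in CPM in each direction, the 5 most abundant genes, and in each of 28 function lists up to 3 genes at either end and the most abundant gene. From these 210 genes the text gives part, some are not reported here, and ccl38a.4 and csf3b were added after their values were seen. Genes of the rule are described only. Free RNA was taken from 70403 (normal) and 58046 (cut) droplets with 10 to 100 UMIs. Neural cells had at least 5 UMIs summed over elavl3, elavl4, stmn1b, gng3 and tubb5, which are part of the 10 neural markers. They also had lyz under 0.5% of UMIs and no more than 2 macrophage UMIs. Macrophages had at least 10 UMIs of the 6 macrophage genes with lyz under 1%.

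No doublet caller was part of the rule. An alternative removed the barcodes with the highest doublet scores, at 0.8% per 1000 barcodes (scikit-learn 1.9.0). TMM factors came from edgeR 4.0.16 in R 4.3.3, used for scaling alone. Other alternatives changed the limits on UMIs, mitochondrial UMIs, lyz, macrophage genes and cell cycle genes. They also changed the scaling, the thinning, the subtraction of free RNA and the minimum of UMIs per gene. Figures were drawn with matplotlib 3.10.9. No sequence or coordinate was used.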

Additional observations from a re-analysis of the deposited data

How the results depend on the processing

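Of 16 alternatives, 2 were chosen after seeing the data, namely members with 3000 to 6000 UMIs and members without an erythroid or muscle UMI. Against 1009 genes higher and 392 lower in CPM, TMM scaling gave 614 lower, UMIs per cell 163 higher and 3572 lower, thinning to 1000 UMIs 532 and 203, members without erythroid or muscle UMIs 547 higher, a minimum of 20 UMIs per gene 1746 and 721, and a minimum of 200 UMIs 355 and 140. Thinning and the higher minimum left fewer genes to compare, the lower minimum more. For the others the cause was not tested beyond the scaling itself. Of the 28 function lists 3 had a median past 1.5-fold in either direction, against 17 in UMIs per cell, 5 with the mean of CPM per cell and 6 in members with 3000 to 6000 UMIs. In UMIs per cell the NF-kappaB list (-0.057), rpl26 (-0.19), acod1 (-0.052), il1b (-0.036), cybb (-0.26), mt-atp6 (-0.10) and s100z (-0.065) turned below 0, on the log2 scale. With free RNA subtracted mt-atp6 (-0.48) did. In members with 3000 to 6000 UMIs the direction turned for ccl34b.8 (-0.36), tnfb (-0.68), il1b (-0.68), bcl3 (-0.083), nfkbiab (-0.069), hsp70l (-0.89), mt-atp6 (-0.18), id1 (-0.89) and trim25 (0.50). The subtraction of free RNA could give no value for genes with no UMIs left in normal members, among them cxcl8a, ccl34a.4 and hamp. No paired analysis was possible because each condition is 1 matrix with no map from cells to replicates. Few normal members had under 2000 UMIs, so levels of rare genes in shallow normal members are the least precise.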
